A study of Mus musculus with 6 samples.

Results

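Diacylglycerol kinases were examined as a gene family in mouse spleen, where transcripts of Dgka and Dgkd were lower in mice overexpressing AIMP2-DX2 than in control littermates, while the 5 other members measured did not pass the same test. The family was set by gene symbol as Dgka, Dgkd, Dgke, Dgkg, Dgkh, Dgki, Dgkq and Dgkz. Of these 8 genes, 7 had at least 1 probe set annotated to that gene alone, 9 probe sets in all, among 22180 genes measured. Dgkg was not analysed here. Where a gene had several probe sets, the one with the highest mean over the 6 arrays stood for it. The family was picked because Dgka and Dgkd fell, so their differences between the groups, and those of the other members in the same comparison, are a description of these arrays and not a test of the family.

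The study measured spleens of mice aged 1 year on 1 Affymetrix array per spleen, 3 per group. The DX2 mice carried CAG-rtTA, a doxycycline-dependent activator under a broadly active promoter, together with a TRE DX2 transgene, and the control mice carried TRE DX2 and no activator. Mice of both groups ate pellets with doxycycline (6.25 mg/kg) from 8 weeks of age. AIMP2 holds together several tRNA synthetases in one complex, and DX2 is its splice variant. Because rtTA was present in 1 group only, effects of rtTA and of DX2 cannot be told apart. The labels call the spleens biological replicates. By Xist and Y-linked transcripts, 2 of the control spleens (1 and 2) were female and all the others male, so the sexes were unevenly spread over the groups. The median log2 value over the genes used was 5.42 to 5.46 on every array, whereas over all probe sets it was 5.16 to 5.20 in control and 5.06 to 5.12 in DX2 spleens, without overlap. Whole spleen RNA mixes many cell types, so fewer cells of a type and less transcript per cell cannot be told apart.

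Diacylglycerol is a membrane lipid made when phospholipase C cleaves phosphoinositides downstream of antigen receptors. It recruits RASGRP proteins and protein kinases C and D to the membrane. Diacylglycerol kinases end that signal by phosphorylating diacylglycerol to phosphatidic acid, itself a signalling lipid, and in T cells the alpha and zeta isoforms are known brakes on T cell receptor signalling.

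The sequences before the start sites of both genes that fell are given so that they can be read beside their values. RefSeq's table (GRCm38.p6) matched all 8 members, with 14 start sites, 4 of them for Dgka and 1 for Dgkd. Each sequence is the 250 bases before a start, read on the gene's own strand, and capitals mark matches on either strand to GGGCGG, the GC box of SP and KLF factors, or to GTGGGCG, an EGR motif. The Dgkd window is chr1:87853037-87853286 on the plus strand. The Dgka windows shown are chr10:128737613-128737862 and chr10:128743879-128744128 on the minus strand, for the start furthest into the gene and for the GC-rich start upstream of it.
Dgkd: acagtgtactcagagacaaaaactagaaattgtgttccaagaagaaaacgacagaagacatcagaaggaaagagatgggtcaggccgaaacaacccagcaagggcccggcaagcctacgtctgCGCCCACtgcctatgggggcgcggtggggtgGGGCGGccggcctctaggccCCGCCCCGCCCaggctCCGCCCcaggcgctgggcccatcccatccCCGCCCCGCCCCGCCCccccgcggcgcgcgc
Dgka, inner start: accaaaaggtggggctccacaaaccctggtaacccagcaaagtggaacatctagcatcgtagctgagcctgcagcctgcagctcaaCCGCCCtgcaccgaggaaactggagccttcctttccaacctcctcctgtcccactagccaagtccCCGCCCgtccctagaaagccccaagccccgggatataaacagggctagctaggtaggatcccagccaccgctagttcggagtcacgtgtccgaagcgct
Dgka, upstream start: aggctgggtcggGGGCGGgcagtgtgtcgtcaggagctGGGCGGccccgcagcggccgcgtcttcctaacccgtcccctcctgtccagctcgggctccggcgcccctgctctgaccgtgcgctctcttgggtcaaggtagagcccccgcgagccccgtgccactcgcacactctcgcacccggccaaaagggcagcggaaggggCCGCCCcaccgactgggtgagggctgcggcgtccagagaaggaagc
The Dgkd window held 7 GC boxes, some of which shared a base, and 1 EGR motif that overlapped none of them, and its GC content was 67.2%. The Dgka windows shown held 2 and 3 GC boxes, at a GC content of 59.2% and 72.4%. Of the 2 Dgka windows not shown, 1 overlapped the upstream one and held 2 GC boxes (60.0% GC), and the other held no match to any motif searched (41.2% GC). GC boxes were common, being present in 32.7% of all 32851 windows of this length in the table, and the EGR motif was present in 7.02%. No match on either strand to the motifs searched for FOXO (GTAAACA, in 3.17% of windows), RUNX (TGTGGT, 14.0%), ETS (CCGGAA, 12.0%), EBF (CCCNNGGG, 11.8%), E2A (CAGCTG, 13.0%) or the octamer (ATGCAAAT, 1.60%) lay in the windows shown, which says only that these letters are not there.

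Among the calcium-regulated type I kinases, Dgka was the measured member. DGK alpha carries calcium-binding EF hands and is abundant in resting T cells. Its log2 value was 10.38, 10.17 and 10.46 in control spleens 1, 2 and 3, and 9.07, 9.34 and 9.32 in DX2 spleens 1, 2 and 3. All DX2 spleens lay below all control spleens, as they did for 11.2% of all genes. The gap between the lowest control and the highest DX2 spleen was 0.83. The means were 10.34 ± 0.15 and 9.24 ± 0.15 (SD, n = 3 each), so Dgka was 2.14-fold lower in DX2 spleens, a fall of 1.10 (SE 0.13) on the log2 scale. The difference was 3.71 times the wider of both within-group ranges.

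Of the type II kinases, which carry a pleckstrin homology domain, Dgkd was lower in every DX2 spleen and Dgkh was not. Dgkd encodes DGK delta, which has been studied most in insulin and growth factor receptor signalling. It read 8.56, 8.60 and 8.74 in control spleens and 7.86, 7.95 and 7.85 in DX2 spleens. Again no DX2 value reached any control value, as was so for 11.2% of all genes, and the gap between the groups was 0.62. Dgkd was 1.68-fold lower, with means of 8.63 ± 0.09 and 7.88 ± 0.05 (SD, n = 3 each) and a fall of 0.75 (SE 0.10), which was 4.36 times the wider within-group range. Dgkh, which encodes the related DGK eta, read 6.63, 6.45 and 6.30 in control and 6.82, 6.77 and 6.29 in DX2 spleens. Those groups overlapped, with DX2 3 at the level of control 3, and the difference was 0.17 (SE 0.17).

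**Figure D1:**
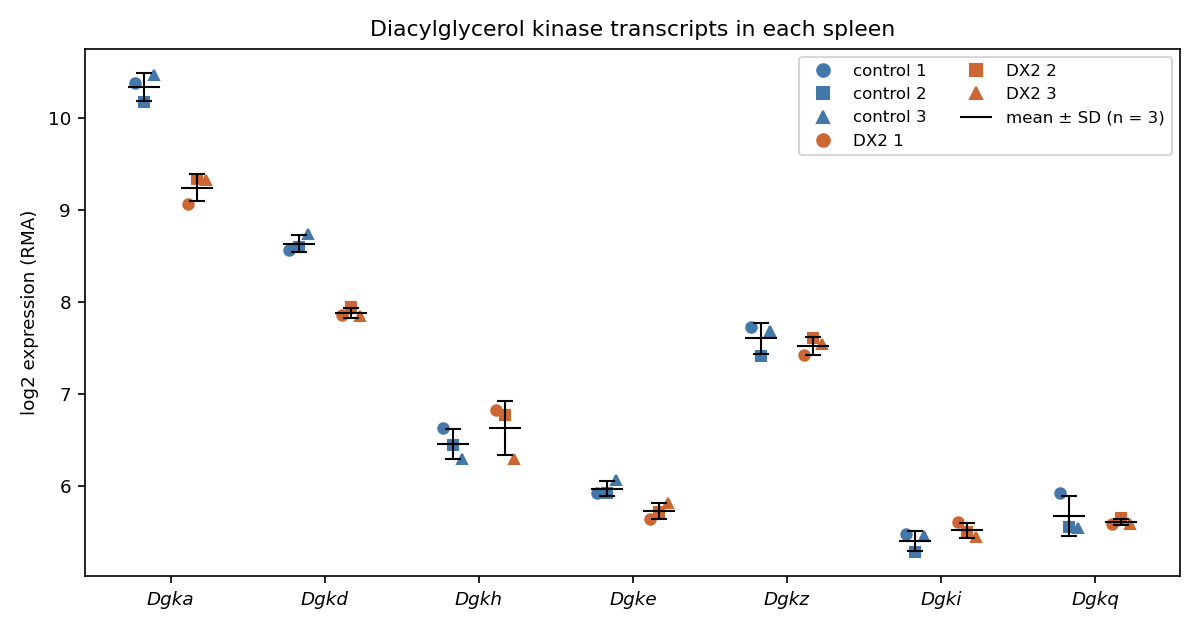
Log2 expression (y axis) of the 7 measured diacylglycerol kinases (x axis) in each spleen, with a symbol per replicate and bars for mean ± SD (n = 3). Dgka and Dgkd stand apart by group, at means of 10.34 against 9.24 and of 8.63 against 7.88, while Dgkh, Dgkz, Dgki and Dgkq overlap; heights of different genes are not comparable, since each has its own probes.

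The values that chose the family were the calls of Dgka and Dgkd by limma, adjusted by Benjamini-Hochberg across 22180 genes, where a gene was called under 0.05. Their adjusted p was 0.0387 and 0.0456. In this comparison 0.316% of all genes passed, 0.280% lower and 0.0361% higher in DX2, against 2 lower and 0 higher among the 7 measured kinases, and nothing is read from that contrast because it is the one that led to the choice. Nearest outside the threshold among the kinases was Dgke, at an adjusted p of 0.320, so none lay close to it. Both calls depended on which arrays were used. They held without DX2 2 (adjusted p of 0.0359 for Dgka and 0.0415 for Dgkd, limma) and were lost when control 1, control 2, control 3, DX2 1 or DX2 3 was left out, at adjusted p of 0.0582 to 0.198 for Dgka and 0.0829 to 0.226 for Dgkd. The sizes moved little, from 1.01 to 1.18 for the fall of Dgka and from 0.70 to 0.78 for that of Dgkd. Control 3 was the male control and also the highest control for both genes. Against it alone, or with a sex term in the fit, which gives the same difference, the log2 difference was -1.22 for Dgka and -0.85 for Dgkd and neither passed (limma, adjusted p = 0.250 and 0.281 with the sex term, 0.671 for each among the males). Both calls were also lost when each array was centred on its median over all probe sets, which raised the median difference of all genes from 0.01 to 0.10, at -1.00 (adjusted p = 0.0580, limma) and -0.66 (adjusted p = 0.0740).

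**Figure D2:**
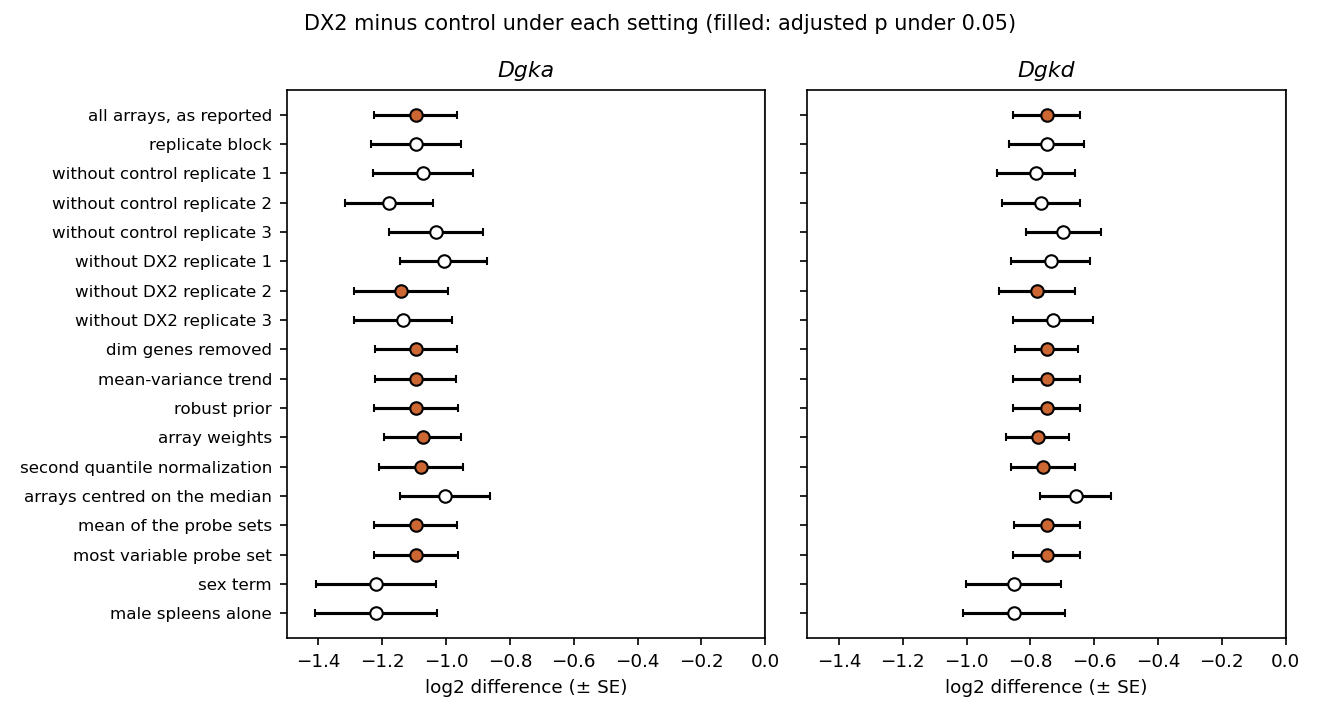
Log2 difference, DX2 minus control (x axis, with SE bars), of Dgka and Dgkd under each setting (y axis), filled where the limma adjusted p was under 0.05. Every difference is negative, from -1.22 to -1.00 for Dgka and from -0.85 to -0.66 for Dgkd. The call was kept under 8 of 17 alternatives for each gene, several of which could not change the difference.

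Dgke is the type III kinase, DGK epsilon, which prefers diacylglycerol with an arachidonoyl chain and so serves phosphatidylinositol turnover. The probe set used read 5.93, 5.92 and 6.06 in control and 5.64, 5.72 and 5.81 in DX2 spleens. All DX2 values were lower, as they were for 11.2% of all genes, and the difference was -0.25 (SE 0.11). The other Dgke probe set went the opposite way, at 5.58, 5.43 and 5.34 in control and 5.60, 5.68 and 5.73 in DX2 spleens, a difference of 0.22 (SE 0.11) with all DX2 values higher. The gene's direction is therefore uncertain. The part of the transcript that each probe set covers was not used here.

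The type IV kinases, with a MARCKS-like region and ankyrin repeats, overlapped between groups. Dgkz encodes DGK zeta, which with DGK alpha limits diacylglycerol signals in T cells. It read 7.72, 7.41 and 7.68 in control and 7.42, 7.61 and 7.54 in DX2 spleens, a difference of -0.08 (SE 0.13). Its sign turned to 0.013 when arrays were centred and to 0.11 with its other probe set, so no direction is given. That other probe set read lower, at means of 4.41 in control and 4.52 in DX2 spleens. Dgki, encoding DGK iota, read 5.48, 5.28 and 5.45 in control and 5.61, 5.50 and 5.44 in DX2 spleens, a difference of 0.11 (SE 0.11). Dgkq, the type V kinase DGK theta, read 5.92, 5.55 and 5.54 in control and 5.59, 5.65 and 5.59 in DX2 spleens. Its difference was -0.06 (SE 0.13), control 1 alone stood above the DX2 spleens, and without control 1 the sign turned to 0.061. It also turned with centred arrays (0.028), after a second quantile normalization (0.032) and with the sex term (0.067).

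Over the 7 measured kinases the median difference was -0.08, against 0.01 over all genes, and over the 5 besides Dgka and Dgkd it was -0.06, with differences from -0.25 to 0.17. None of the 5 passed (limma), and at an unadjusted p under 0.05 there were 0 of 5, against 16.0% of all genes. Their SE lay between 0.11 and 0.17. The group means of Dgke, Dgki and Dgkq lay between 5.40 and 5.97, not far above the median gene, which read 5.42 to 5.46 on the arrays. Leaving out 1 array at a time, the difference ran from 0.07 (without DX2 1) to 0.34 (without DX2 3) for Dgkh, from 0.05 (without control 2) to 0.15 (without control 1) for Dgki, and from -0.18 (without control 2) to -0.02 (without control 1) for Dgkz. A miss of the threshold does not show that these kinases were alike in both groups.

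**Figure D3:**
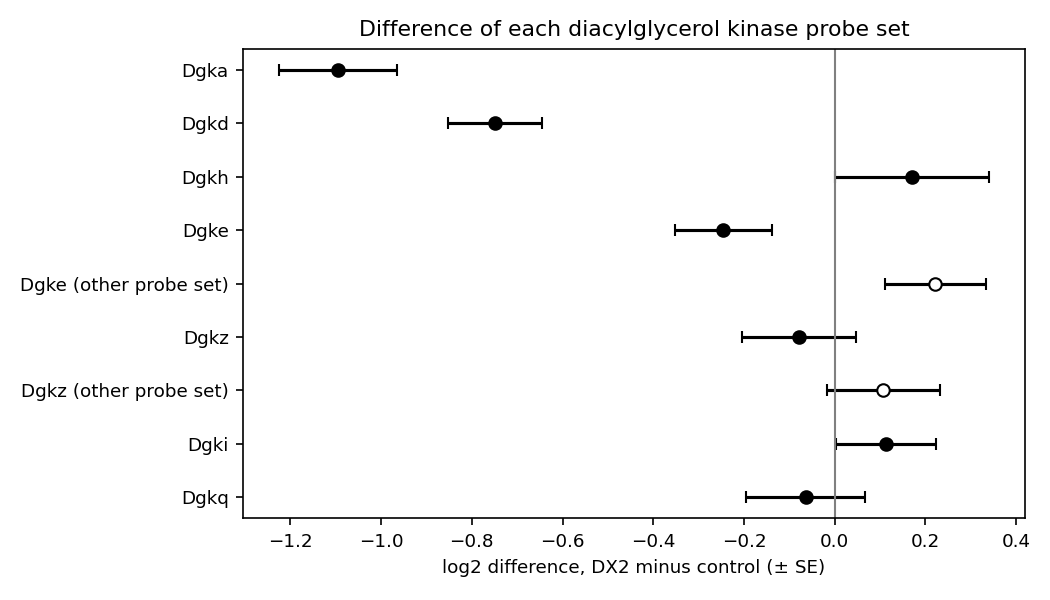
Log2 difference, DX2 minus control (x axis, with SE bars), for each of the 9 probe sets of the measured kinases (y axis), filled for the probe set used and open for the second one of Dgke and Dgkz. The probe sets of Dgke fall on either side of 0, at -0.25 and 0.22, and those of Dgkz at -0.08 and 0.11.

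The other genes of diacylglycerol and phosphatidic acid metabolism did not pass in either direction. A list of 75 measured genes outside the family was grouped by role, and 0 of them passed over all genes (limma), with 16 of 75 (21.3%) at an unadjusted p under 0.05, against 16.0% of all genes. Their median difference was 0.09, with 46 above 0 and 29 below, where 11452 of all 22180 genes were above 0. The groups did not overlap for 21 of the 75 (28%), against 22.0% of all genes.

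On the side that makes diacylglycerol, a list of 13 phospholipases C and C-like proteins had a median difference of 0.02, which ran from -0.07 to 0.09 as 1 array was left out. It includes Plcl1 and Plcl2, which are related in sequence and lack the catalytic activity. Of the 13, 3 (23.1%) had an unadjusted p under 0.05, against 16.0% of all genes, and they were Plcg2 and Plcb2, below 0, and Plcl1, above it. Plcg2, which acts downstream of the B cell receptor, read 9.02, 8.88 and 8.83 in control and 8.20, 8.67 and 8.55 in DX2 spleens, a difference of -0.44 (SE 0.15, adjusted p = 0.212, limma). Plcb2, which couples to G protein-coupled receptors in blood cells, read 8.41, 8.21 and 8.47 in control and 7.88, 7.68 and 7.91 in DX2 spleens, a difference of -0.54 (SE 0.12, adjusted p = 0.108, limma). In both genes every DX2 spleen was lower than every control spleen, as was so for 11.2% of all genes. Over the list, the groups did not overlap for 5 of 13 (38.5%), against 22.0% of all genes. Plcl1 read 5.17, 5.06 and 5.08 in control and 5.54, 5.54 and 5.17 in DX2 spleens, a difference of 0.31 (SE 0.13, adjusted p = 0.305, limma). Every DX2 spleen was higher for Plcl1, as for 10.7% of all genes. It was named after its values were seen.

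Among the proteins that diacylglycerol recruits, the protein kinases C and D mostly had differences below 0. Of 9 measured, 8 did, where 10728 of all 22180 genes did. In 5 of the 9 (55.6%) all DX2 spleens were lower than all control spleens, against 11.2% of all genes. The median difference was -0.26 (-0.17 with centred arrays), 0 passed, and 5 (55.6%) had an unadjusted p under 0.05, against 16.0% of all genes. These 5 were Prkd2, Prkcq, Prkce and Prkd3, below 0, and Prkch, above it at 0.46 (SE 0.18, adjusted p = 0.264, limma), with overlapping groups; the last 3 are named after their values were seen. Prkd2, the main protein kinase D of lymphocytes, read 8.35, 8.56 and 8.77 in control and 7.74, 8.01 and 8.02 in DX2 spleens, a difference of -0.64 (SE 0.14, adjusted p = 0.109, limma). Prkcq, the protein kinase C theta of the T cell synapse, read 8.22, 8.14 and 8.37 in control and 7.90, 7.64 and 7.67 in DX2 spleens, a difference of -0.51 (SE 0.12, adjusted p = 0.118).

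The 7 genes listed as RAS and RAC regulators that bind diacylglycerol are not all such regulators. The SD of their list mean was 0.12 in control and 0.10 in DX2 spleens. Rasgrp1 and Rasgrp2 varied more among DX2 spleens, at SD 0.66 and 0.57 against 0.18 and 0.09 in control. The median of the 7 was -0.06, and it was -0.29 with the most variable probe set of each gene, -0.31 without dim genes, 0.027 with centred arrays and 0.0072 after a second quantile normalization, so no direction is given for the list. None passed (0 of 7, limma) and 1 (14.3%) had an unadjusted p under 0.05, against 16.0% of all genes. Rasgrp1, the RAS activator of T cells, read 8.73, 8.38 and 8.53 in control and 7.01, 8.31 and 7.86 in DX2 spleens, a difference of -0.82 (SE 0.30, adjusted p = 0.252, limma). Without DX2 1 the difference was -0.46, and DX2 2 lay just below the lowest control. Rasgrp2, an activator of RAP1 in platelets and lymphocytes, differed by -0.55 (SE 0.26, adjusted p = 0.364), with DX2 1 within the control range, and was -0.84 without DX2 1 and -0.26 without DX2 2.

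Enzymes of other reactions around diacylglycerol and phosphatidic acid had medians above 0 and no gene past the threshold. A list of 8 other enzymes around diacylglycerol, not all of which consume it, had a median of 0.16 (0.09 without DX2 1). Of these the sphingomyelin synthases Sgms1 and Sgms2, which release diacylglycerol as they form sphingomyelin, differed by -0.42 (SE 0.18; -0.23 without DX2 2) and 0.40 (SE 0.20; 0.19 without DX2 1). The 9 phosphatidic acid phosphatases, which turn phosphatidic acid back into diacylglycerol, had a median of 0.16, with Plpp2 at 0.44 (SE 0.14) and Lpin2 at 0.40 (SE 0.19). That median was 0.11 without control 1 and 0.06 without DX2 1 or without DX2 3, and Lpin2 was 0.21 without DX2 1. The 11 genes listed as other makers of phosphatidic acid, not all of which make it, had a median of 0.22 (0.13 without control 2, 0.15 without DX2 2). Of these the acyltransferases Agpat4 and Agpat5 differed by 0.57 (SE 0.17) and 0.44 (SE 0.18). The 15 genes of phosphatidylinositol resynthesis had a median of 0.12, with the phosphatidylinositol 4-kinases Pi4kb and Pi4ka at -0.47 (SE 0.13) and -0.24 (SE 0.13, and -0.13 without DX2 1). Other probe sets of Pi4kb gave -0.60 (SE 0.15, adjusted p = 0.135, limma) and -0.70 (SE 0.12, adjusted p = 0.0804, limma). Of 3 related lipid kinases, the sphingosine kinase Sphk1 differed by 0.47 (SE 0.17) and the ceramide kinase Cerk by -0.44 (SE 0.16). Over these 5 groups the counts at an unadjusted p under 0.05 were 0, 1, 3, 1 and 2, where 16.0% of all genes had one. On the probe set used, the adjusted p of the genes named was 0.153 or above (limma). Without DX2 2, Sphk1 passed, at 0.66 (SE 0.11, adjusted p = 0.0479).

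**Figure D4:**
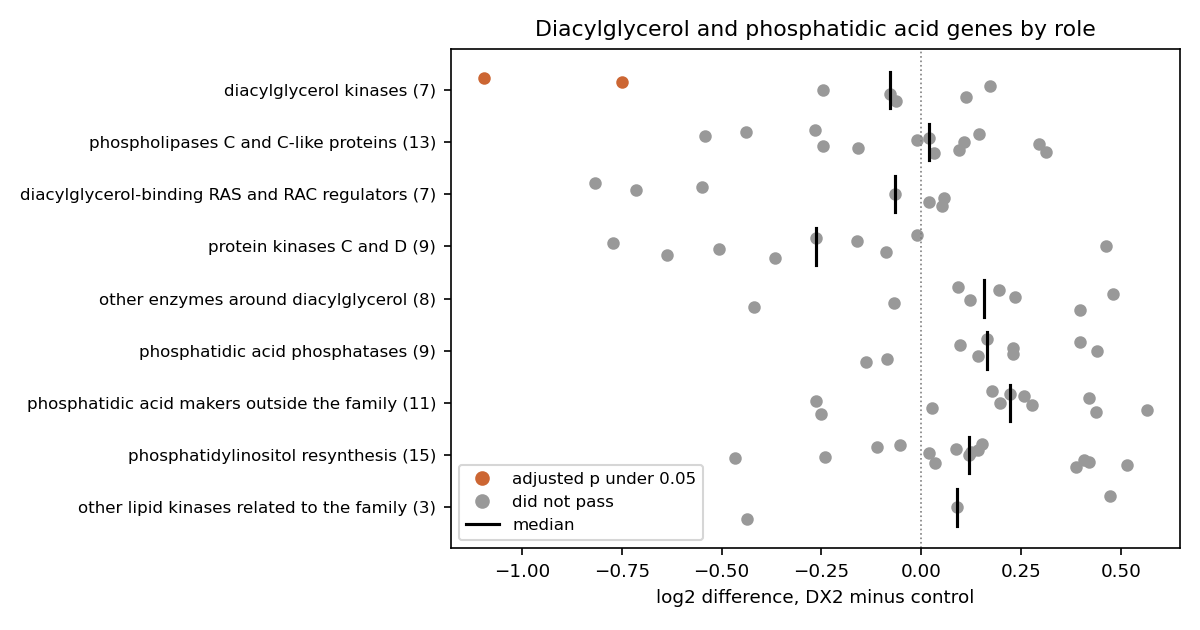
Log2 difference, DX2 minus control (x axis), of each measured gene by role (y axis, number of genes in brackets), with a black line at the median of each group and colour for genes past the limma threshold. Dgka and Dgkd are the coloured points, the protein kinases C and D have a median of -0.26, and the genes listed as other makers of phosphatidic acid one of 0.22.

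Markers of spleen cell types moved between the groups as well. Of 11 measured B cell markers all 11 were lower in every DX2 spleen than in any control spleen, as were 11.2% of all genes, and 5 passed, including Ebf1, a transcription factor of B cell identity (-1.84, SE 0.24, adjusted p = 0.0422, limma), and the complement receptor Cr2 (-3.16, SE 0.43, adjusted p = 0.0431). As a list they averaged 9.60 to 9.99 (log2) in control spleens and 7.82 to 8.60 in DX2 spleens. Relative to the control mean it was -1.98, -1.51 and -1.21 in DX2 1, 2 and 3, where Dgka was -1.27, -1.00 and -1.01 and Dgkd was -0.77, -0.69 and -0.79. All 3 were lower in each DX2 spleen. The part of B cell content in the falls of Dgka and Dgkd was not tested.

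T cell markers were low in 1 of the 3 DX2 spleens. All 12 measured had a difference below 0 (median -0.38), 0 passed (limma), 1 of 12 (8.33%) had an unadjusted p under 0.05, against 16.0% of all genes, and in none did the groups stay apart, as they did for 22.0% of all genes. The smallest p values belonged to Lat, an adaptor of the T cell receptor (-0.47, SE 0.20), and Trat1 (-0.48, SE 0.28), which also binds that receptor. The list mean was 7.45 to 7.76 in control spleens and 6.46, 7.81 and 7.50 in DX2 1, 2 and 3. In DX2 3 it thus lay within the control range and in DX2 2 just above it (-0.13 and 0.19 relative to the control mean), while Dgka stood at -1.01 and -1.00 in those same spleens. Without DX2 1 the difference of Dgka was -1.01 and that of Dgkd -0.74, and neither passed. The part of T cell content in the falls of Dgka and Dgkd was not tested.

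The lists of other cell types differed between the DX2 spleens too, several of them most in DX2 1. The erythroid list (13 genes) stood at 9.60, 7.31 and 9.29 in DX2 1, 2 and 3 against 6.25 to 8.11 in control spleens, and the red pulp macrophage list (14 genes) at 9.13 ± 0.11 against 8.63 ± 0.11 (SD, n = 3 each). The macrophage genes did not all rise. Every DX2 spleen was higher for 9 of the 14, as for 10.7% of all genes. The groups overlapped for Adgre1 (0.19), Cd163 (0.17), Hmox1 (-0.03), Marco (-0.19) and Slc40a1 (-0.33), which were named after their values were seen. The neutrophil list (11 genes, 7.29 to 9.03 against 6.91 to 7.91) and the megakaryocyte and platelet list (8 genes, 6.99 to 9.22 against 7.03 to 7.66) were highest in DX2 1. The NK cell list (7 genes) was 5.40 to 5.69 in DX2 and 5.79 to 5.88 in control spleens, the plasma cell list (8 genes) 7.67 to 8.06 and 7.87 to 8.10, and the pancreas list (5 genes) 4.72 to 4.93 and 4.76 to 4.79. Dgkd varied by 0.10 among the DX2 spleens, across which the erythroid list ranged most widely. The part of these cell types in the differences was not tested.

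**Figure D5:**
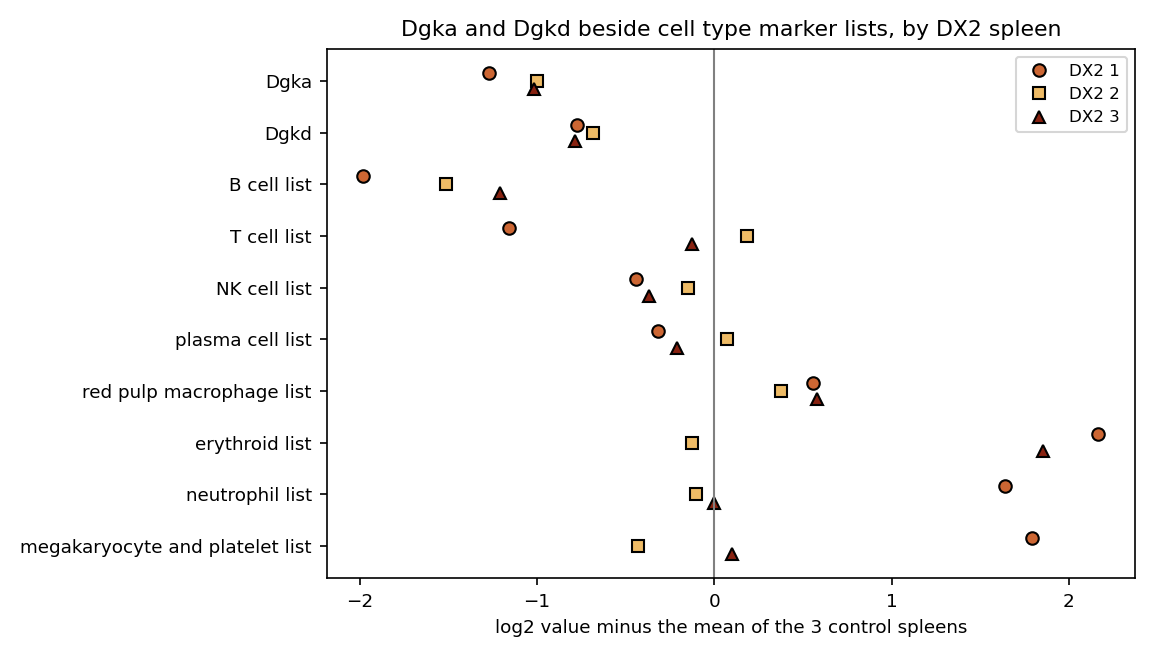
Log2 value relative to the mean of the 3 control spleens (x axis) for Dgka, Dgkd and the mean of each marker list (y axis), with a symbol per DX2 spleen. Dgka, Dgkd and the B cell and NK cell lists are negative in all DX2 spleens. The T cell list is -1.16 in DX2 1, 0.19 in DX2 2 and -0.13 in DX2 3.

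Genes with patterns like those of Dgka and Dgkd were found by distance. Each gene was centred on its mean over the 6 arrays, and the root mean square difference of its log2 values from those of Dgka or Dgkd was taken. Nearest to Dgka were Foxp1 (0.044), a transcription factor of lymphocyte development, Apol7c (0.059), of the apolipoprotein L family, Acap1 (0.067), a regulator of ARF6 in recycling, Bank1 (0.084), a B cell scaffold protein, and Bin1 (0.089), which shapes membranes. Foxp1 read 9.69, 9.49 and 9.89 in control and 8.40, 8.63 and 8.69 in DX2 spleens. Like Dgka it was lowest among controls in control 2 and lowest of all in DX2 1. Nearest to Dgkd were Cyth1 (0.049), an activator of ARF GTPases, Samd9l (0.057), Chd2 (0.058), a chromatin remodeller, Snx2 (0.060), a sorting nexin of endosomes, and Traf5 (0.060), an adaptor of TNF receptors. Cyth1 read 7.60, 7.59 and 7.85 in control and 6.85, 7.06 and 6.88 in DX2 spleens, with its highest values in control 3 and, among DX2 spleens, in DX2 2, as for Dgkd. The distance between Dgka and Dgkd themselves was 0.20, which placed Dgkd at rank 97 from Dgka and Dgka at rank 557 from Dgkd. These genes were chosen for their likeness over the same arrays and are a description.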

How the data were processed

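The authors deposited log2 values of all 6 arrays in a single table, made with RMA (background correction, normalization between arrays, summary per probe set) per the submitters' processing notes. The software and its version are not stated, and log2 was read from the range of the values (0.771 to 13.3). RMA compresses large differences. Of 41345 probe sets, 23521 had 1 gene symbol in the supplied platform annotation, 1814 several and 16010 none, and only the first were used, giving 22180 genes. Groups and replicate numbers were read from titles.

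The control mean was subtracted from the DX2 mean in a fit by limma 3.58.1 (lmFit, eBayes, no covariate, no filter; R 4.3.3), with Benjamini-Hochberg adjustment over all genes. The fit was tried on 10 simulated data sets with normal noise, independent between genes and arrays, and no sex or cell type differences. It recovered 68.2% of log2 changes of 1 and 95.7% of those of 2, and 5.44% of calls were false. Lacking those differences, the simulation cannot show whether the calls made here are true. The members, the pathway and marker lists, the motifs and the named genes (all measured members, the 2 genes of smallest unadjusted p in each pathway list and in the B and T cell lists, and the 5 nearest patterns without predicted symbols) were chosen with earlier results of these data known. The test of each probe set on its own was added after seeing the data. Precision is limited by the number of arrays. Some listed genes without a probe set of their own were not analysed here.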

Additional observations from a re-analysis of the deposited data

How the results depend on the processing

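Under all 17 alternatives Dgka and Dgkd kept their direction, which follows from how they were chosen, and 8 of the 17 kept the call of each. Several of those 8 could not change the differences. Neither gene has another probe set, so settings that average or choose probe sets reuse the same values. Removing dim genes, or estimating the variance in other ways, also left the differences at -1.10 and -0.75. Besides 70 genes past the threshold in the fit reported, the total was 125 with the 40% dimmest genes removed (28 higher, 97 lower), 547 with array weights (219 higher, 328 lower), 394 at an adjusted p under 0.1, 2 with centred arrays, 2 with sex as a term and 0 for the male spleens alone, where a lone control is assumed to vary like the DX2 spleens. After quantile normalization was repeated, 20 genes were higher and 64 lower, where the reported fit had 8 and 62. The count of diacylglycerol kinases past the threshold fell from 2 to 0 with centred arrays, the sex term and the male spleens, where Dgka was at -1.00, -1.22 and -1.22 and Dgkd at -0.66, -0.85 and -0.85. Leaving out 1 array at a time, the total ranged from 1 to 370, the kinases past the threshold from 0 to 2, the pathway genes from 0 to 1, Dgka from -1.18 to -1.01 and Dgkd from -0.78 to -0.70.

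With the replicate number as a block 1 gene passed, no kinase did (0), and the differences of Dgka (-1.10, adjusted p = 0.188, limma) and Dgkd (-0.75, adjusted p = 0.205) were the same by construction. Deviations of same-numbered spleens correlated at -0.32, -0.14 and 0.07 across genes, and 1 of 6 arrays correlated best with its own number. With so few arrays, these correlations cannot decide whether the numbers pair the spleens.

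Signs turned for kinases that had not passed. Dgke was 0.22 on its other probe set. Dgkq was 0.028 with centred arrays, 0.032 after repeated quantile normalization, 0.067 with the sex term and in male spleens, and ran from -0.13 to 0.061 over the left-out arrays. Dgkz was 0.013 with centred arrays, 0.014 as the mean of its probe sets and 0.11 with its more variable, other probe set. Fits with fewer arrays or more terms have fewer degrees of freedom, and centring moved the median difference of all genes from 0.01 to 0.10.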

Other observations

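Dgkk, a type II kinase of the family that was not among the genes examined above, had 1 probe set. It read 4.17, 3.99 and 3.82 in control and 4.06, 4.66 and 4.52 in DX2 spleens. The difference was 0.42 (SE 0.18, adjusted p = 0.314, limma), with DX2 1 within the control range.

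The 2 probe sets of Dgke differed from each other by more in control than in DX2 spleens. The first minus the second was 0.35, 0.49 and 0.72 in control and 0.04, 0.04 and 0.08 in DX2 spleens, or 0.52 ± 0.19 and 0.05 ± 0.02 (SD, n = 3 each), without overlap. This comparison was chosen after the values were seen, and no test is given.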
